A study of Mus musculus with 9 samples.

Results

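The 10 genes described here encode the enzymes that build fatty acids from acetyl-CoA, lengthen them and put double bonds into them, together with Srebf1, the transcription factor gene that controls many of these enzymes. They were chosen by symbol (Srebf1, Acly, Acaca, Fasn, Scd1, Scd2, Elovl5, Elovl6, Fads1 and Fads2), and each symbol matched 1 of the 53715 gene IDs in the deposited table. RNA was sequenced from mouse primary myoblasts, muscle precursor cells grown from muscle tissue, of the strain C57BL/10ScSn-Dmdmdx/J at passage 1. The strain carries the mdx mutation in the dystrophin gene, so cells at both glycine levels carry it, and there is no wild-type group. The amino acid glycine was supplied at 0.2 mM to the cells of 3 libraries and at 0.8 mM to those of 6, and the question is how RNA levels differ between these amounts. Separate cultures or animals are not named in the labels, so p-values measure the spread between these libraries, which may be technical. Library numbers run in 2 series with 1 glycine level each, so glycine and any batch tied to a series cannot be told apart.

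Fatty acid synthesis starts in the cytosol with citrate exported from mitochondria. Acly splits it into acetyl-CoA, Acaca carboxylates acetyl-CoA to malonyl-CoA, and Fasn joins these units into palmitate. At the endoplasmic reticulum, Elovl6 extends palmitate, Scd1 and Scd2 place a double bond at the delta-9 position to make monounsaturated fatty acids, and Elovl5, Fads1 and Fads2 work on polyunsaturated fatty acids. SREBP-1, the product of Srebf1, favours genes of fatty acid synthesis, and its relative SREBP-2 favours genes of cholesterol synthesis. Both are held in the membrane by Insig proteins and carried by Scap to the proteases that release them.

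Values are TPM, in which reads per gene are divided by gene length and scaled to a common sum per library, so levels can be compared between genes. TPM keeps no read numbers, so the depth is unknown and the spread between libraries stands for the precision. Means carry the SD of their group (n = 3 at 0.2 mM, n = 6 at 0.8 mM). Changes are log2 fold changes on the (TPM + 1) scale, taken as 0.8 mM minus 0.2 mM, with the SE of the fit, and at low TPM they are smaller than the change in TPM itself. A gene passed at a limma adjusted p (Benjamini-Hochberg over 10049 genes) under 0.05, and "rose" and "fell" are used only of genes that passed.

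At 0.8 mM glycine both stearoyl-CoA desaturase genes, the elongase gene Elovl6 and the citrate lyase gene Acly rose. Scd2 had the largest log2 fold change of the 10 genes, and went from 1.28 ± 0.255 to 17.4 ± 1.21 TPM. Of the 10 genes, 4 rose, 0 fell and 6 did not pass, where 16.7% of all tested genes rose, 9.81% fell and 26.6% did one or the other. At an unadjusted limma p under 0.05, 7 were higher and 0 were lower. The share of calls over all tested genes that were rises was 63.1%, against 52.6% after median-ratio scaling and 49.8% after quantile normalization, and the same 4 of the 10 rose under each. The median log2 fold change was 0.62 over the 10 genes and 0.06 over all genes tested. The groups did not overlap for 4 of the 10 genes, all higher at 0.8 mM, as they did for 17.6% of tested genes in that direction and 10.6% in the other. Scd1, Elovl6 and Fasn reached the filter, at least 1 TPM in at least 3 libraries, through the 0.8 mM libraries alone, so these counts describe the genes and support nothing further. With no filter on low values Scd1 and Elovl6 still rose (limma adjusted p = 0.0020 and 0.0017) and Fasn did not (0.256).

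**Figure D1:**
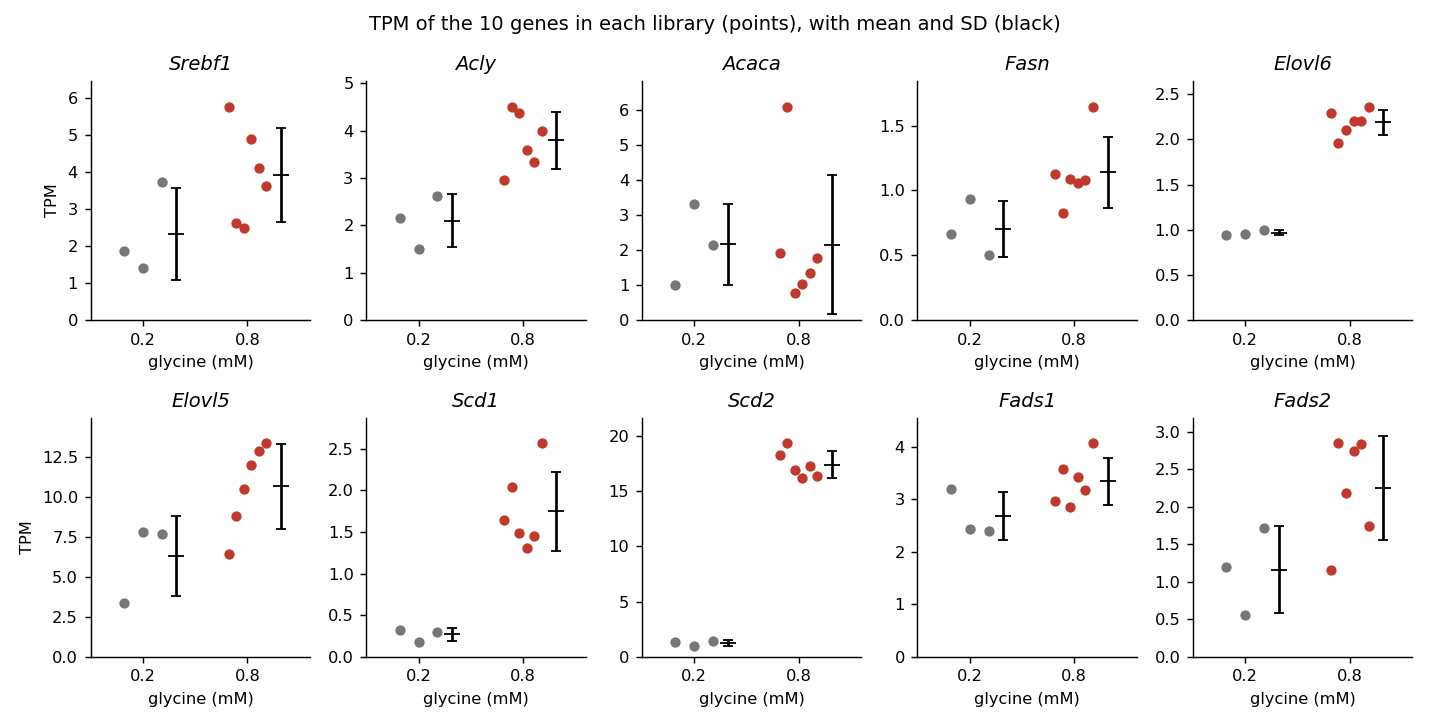
Each panel gives the TPM of 1 gene on an axis that starts at 0, with grey points for the 3 libraries at 0.2 mM, red points for the 6 at 0.8 mM glycine and the mean and SD in black. The groups are apart for Acly, Elovl6, Scd1 and Scd2, and overlap for the other 6 genes, as for Acaca with 1 library at 6.09 TPM.

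Srebf1, the regulator, lies on chromosome 11 (60199089 to 60222581, minus strand, GRCm38). It was at 1.86, 1.40 and 3.74 TPM in the libraries at 0.2 mM, and its lowest, median and highest values at 0.8 mM were 2.49, 3.87 and 5.78 TPM. The groups overlapped, with 3 of 6 libraries at 0.8 mM above the highest at 0.2 mM. The log2 fold change of 0.58 ± 0.26 did not pass (limma adjusted p = 0.131). It passed without 0.2 mM replicate 3, the library with the highest value of that group (0.0389), and was at 0.413 without 0.2 mM replicate 2. The annotation lists 12 transcripts for the gene and RefSeq lists 3 promoters, and a gene-level value cannot tell the SREBP-1a and SREBP-1c forms apart. Exons of Rai1 on the opposite strand and of a microRNA gene cover 3.11% of its exonic bases, and whether strand was used in counting is not given in the sources used here.

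In a list of SREBP pathway genes and related regulators, Srebf2, Insig1 and Insig2 rose and the others tested did not pass. Srebf2, which encodes SREBP-2, rose from 8.26 ± 0.0455 to 16.5 ± 1.18 TPM, or by 0.92 ± 0.09 in log2 (limma adjusted p = 1.86e-05). Insig1, the retention protein that is itself a target of SREBP, rose from 1.498 ± 0.712 to 4.33 ± 0.362 TPM (limma adjusted p = 0.000673). Insig2 rose by 0.45 (limma adjusted p = 0.0456), but leaving out any 1 of 6 libraries ended the call, at most 0.203 without 0.2 mM replicate 1, as did median-ratio scaling (0.105). Scap, the carrier protein, was at 2.82 ± 1.88 and 3.01 ± 0.937 TPM (limma adjusted p = 0.739). Of the 12 genes in this list 10 were tested, of which 3 rose, 0 fell and 7 did not pass. At an unadjusted limma p under 0.05, 3 were higher and 1 lower, and the median log2 fold change was -0.06. Over all tested genes 16.7% rose and 9.81% fell. The gene of ChREBP, the glucose-responsive activator Mlxipl, stayed at or below 0.370 TPM.

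Acly, ATP citrate lyase, makes the cytosolic acetyl-CoA from which both fatty acids and sterols are built, and lies on chromosome 11 (100476353 to 100528000, minus strand). It was at 2.16, 1.51 and 2.62 TPM at 0.2 mM, and from 2.96 through a median of 3.80 to 4.51 TPM at 0.8 mM. Every library at 0.8 mM lay above every library at 0.2 mM. It rose by 0.64 ± 0.16 (limma adjusted p = 0.0116), a call that ended when 0.2 mM replicate 2 was left out (0.0639). Acss2, which makes acetyl-CoA from acetate, had 0.744 ± 0.310 and 1.05 ± 0.445 TPM without passing (limma adjusted p = 0.466). Slc25a1, the mitochondrial citrate exporter that feeds Acly, rose from 28.1 ± 1.21 to 43.99 ± 7.11 TPM (limma adjusted p = 0.00646).

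Acaca, acetyl-CoA carboxylase 1, the step that commits carbon to fatty acids, lies on chromosome 11 (84129672 to 84401651, plus strand). It was at 1.01, 3.32 and 2.14 TPM at 0.2 mM, and its lowest, median and highest values at 0.8 mM were 0.772, 1.55 and 6.09 TPM. Libraries at 0.8 mM lay both above and below the whole range at 0.2 mM. The log2 fold change was -0.10 ± 0.40 (limma adjusted p = 0.883). The coefficient of variation was 53.5% at 0.2 mM and 91.7% at 0.8 mM, the widest of the 10 genes at each level. Of the 50-base windows of its transcript with the longest coding sequence, 52.6% also occur in Gm5182, a processed pseudogene on chromosome 12 (10152142 to 10158233), and 42.8% of the 100-base windows do. The deposited table has no row for Gm5182, and how reads that match both places were assigned is not given in the sources used here, so the level of Acaca is uncertain.

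Fasn, fatty acid synthase, the enzyme that assembles palmitate, lies on chromosome 11 (120805846 to 120824547, minus strand). It was at 0.668, 0.932 and 0.503 TPM at 0.2 mM, and from 0.829 through a median of 1.09 to 1.65 TPM at 0.8 mM. Of the 6 libraries at 0.8 mM, 5 lay above the highest at 0.2 mM. The log2 fold change of 0.33 ± 0.15 did not pass (limma adjusted p = 0.147). By mean TPM Fasn stood above 4.83% of the tested genes at 0.2 mM and above 10.1% at 0.8 mM.

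Elovl6 extends saturated fatty acids of palmitate length and lies on chromosome 3 (129532355 to 129638495, plus strand). It was at 0.946, 0.957 and 0.996 TPM at 0.2 mM, and from 1.96 through a median of 2.21 to 2.36 TPM at 0.8 mM. The libraries of a group lay close together and the groups were apart. It rose by 0.70 ± 0.11 (limma adjusted p = 0.000958), with a ratio of mean TPM of 2.26. The call held with each library left out, with a highest adjusted p of 0.00597 without 0.2 mM replicate 1. It ended with libraries 1 to 3 and their number as a block (limma adjusted p = 0.0555), at a log2 fold change of 0.66. Of the 50-base windows of its transcript 4.59% also occur in other annotated genes, and of the 100-base windows 0.974%.

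Elovl5, which lengthens polyunsaturated fatty acids, lies on chromosome 9 (77917364 to 77984519, plus strand). It was at 3.38, 7.81 and 7.69 TPM at 0.2 mM, and from 6.45 through a median of 11.2 to 13.3 TPM at 0.8 mM. The first library at 0.2 mM was far below the other two, and 5 of 6 libraries at 0.8 mM lay above all 3. The log2 fold change of 0.71 ± 0.26 was slightly larger than that of Elovl6 and did not pass (limma adjusted p = 0.0695). It passed without 0.8 mM replicate 1 (0.0280) and with library weights (0.0439), and was at 0.301 without 0.2 mM replicate 1, where the log2 fold change was 0.38.

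Scd2 and Scd1, the desaturases that make oleate and palmitoleate, lie in 1 cluster on chromosome 19, with Scd4 between them, Scd2 at 44293674 to 44306864 on the plus strand, and Scd1 at 44394455 to 44407879 on the minus strand. Scd2 was at 1.37, 0.990 and 1.48 TPM at 0.2 mM, and from 16.2 through a median of 17.1 to 19.4 TPM at 0.8 mM. The lowest library at 0.8 mM thus stood above 16 TPM and the highest at 0.2 mM below 1.5 TPM. Scd2 rose by 3.02 ± 0.11 (limma adjusted p = 1.58e-08), with a ratio of mean TPM of 13.6, and held rank 9 by log2 fold change among the 10049 genes tested. By mean TPM it stood above 17.4% of tested genes at 0.2 mM and above 80.2% at 0.8 mM. The log2 fold change lay between 2.92 and 3.68 over the 21 alternatives run, and the call held under each.

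Scd1 was at 0.326, 0.182 and 0.302 TPM at 0.2 mM, and from 1.302 through a median of 1.57 to 2.56 TPM at 0.8 mM. The groups did not overlap. It rose by 1.10 ± 0.16 (limma adjusted p = 0.000537), and the ratio of mean TPM was 6.47. That ratio rests on 0.2 mM values below 1 TPM, and the log2 fold change was 2.31 with a pseudocount of 0.1 in place of 1. Scd3 and Scd4, the other family members, are listed at 0 in every library.

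Scd1 and Scd2 are near copies, which bears on how well short reads tell them apart. Their coding sequences, of 1065 and 1074 bases, were identical at 962 of 1065 aligned positions (90.3%) in GENCODE M21, and the longest identical run was 147 bases. A stretch inside that run, bases 523 to 642 of the Scd1 coding sequence and 532 to 651 of that of Scd2, reads the same in both genes. The 120 aligned bases that differ most, bases 75 to 194 of Scd1 and 84 to 203 of Scd2, differ at 32 positions, shown in capitals.
Shared by Scd1 and Scd2: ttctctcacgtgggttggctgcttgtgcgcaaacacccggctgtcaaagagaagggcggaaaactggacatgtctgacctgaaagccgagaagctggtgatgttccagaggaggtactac
Scd1: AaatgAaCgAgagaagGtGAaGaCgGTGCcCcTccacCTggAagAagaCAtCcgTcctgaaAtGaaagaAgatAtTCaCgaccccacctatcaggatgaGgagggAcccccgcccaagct
Scd2: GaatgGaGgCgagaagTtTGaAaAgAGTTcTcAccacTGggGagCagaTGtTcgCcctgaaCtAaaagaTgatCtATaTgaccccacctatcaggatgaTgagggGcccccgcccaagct
Over whole transcripts, 4.66% of the 50-base windows of Scd1 and 4.01% of those of Scd2 occur in another annotated gene. At 100 bases the shares were 2.66% and 0.896%. How reads that match both genes were assigned is not given in the sources used here.

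Scd2 held a share of the summed RNA of both desaturase genes that was higher at 0.8 mM in these libraries. Scd2 made up 80.8, 84.5 and 83.0% of the summed TPM of Scd1 and Scd2 at 0.2 mM, and between 86.5 and 92.6% at 0.8 mM, so the groups did not overlap. On the log2(TPM + 1) scale the difference between Scd2 and Scd1 grew by 1.92, from 0.84 ± 0.088 to 2.76 ± 0.237, and was higher in 6 of 6 libraries at 0.8 mM than in any at 0.2 mM (two-sided exact permutation p = 0.0238, adjusted p = 0.143 over the 6 pairs compared). The change was 1.37 with a pseudocount of 0.1 in place of 1, since Scd1 lay below 1 TPM at 0.2 mM. The exact p is the smallest that the 84 arrangements of the labels allow, so with 6 pairs a single pair could not pass after adjustment. In the lowest library at 0.8 mM, replicate 6, Scd1 had its highest value.

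**Figure D2:**
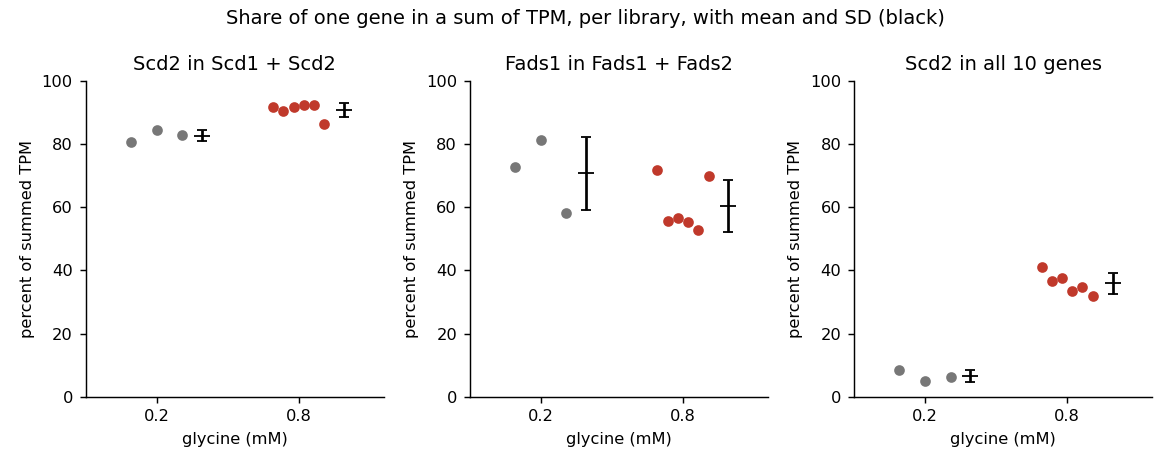
Each panel gives the share of 1 gene in a sum of TPM, in percent, with grey points for the 3 libraries at 0.2 mM, red points for the 6 at 0.8 mM glycine and the mean and SD in black. Scd2 in the sum of Scd1 and Scd2 lies at 80.8 to 84.5% and at 86.5 to 92.6%, the share of Fads1 in the sum of Fads1 and Fads2 overlaps, and Scd2 in the sum of all 10 genes lies at 4.93 to 8.50% and at 31.9 to 41.1%.

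Fads1 and Fads2, the delta-5 and delta-6 desaturases that act on polyunsaturated fatty acids, also lie on chromosome 19 (10182888 to 10196877, plus strand, and 10062765 to 10101746, minus strand). Fads1 was at 3.20, 2.44 and 2.40 TPM at 0.2 mM, and from 2.86 through a median of 3.29 to 4.06 TPM at 0.8 mM. The groups overlapped, and the log2 fold change of 0.24 ± 0.13 did not pass (limma adjusted p = 0.221). Fads2 was at 1.20, 0.559 and 1.71 TPM at 0.2 mM, and from 1.16 through a median of 2.46 to 2.84 TPM at 0.8 mM. Of the libraries at 0.8 mM 5 of 6 lay above all 3 at 0.2 mM, and 1 lay within them. Its log2 fold change of 0.60 ± 0.23 did not pass (limma adjusted p = 0.0832). It passed without that library, 0.8 mM replicate 1 (0.0306), and was at 0.326 without 0.2 mM replicate 2. The coding sequences of the pair were identical at 66.7% of aligned positions, and 0.161% of the 50-base windows of Fads2 and 0 of those of Fads1 occur in another gene.

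Fads3, the third gene of this cluster, whose product desaturates sphingoid bases, fell from 11.8 ± 0.957 to 6.76 ± 0.400 TPM, with -0.73 ± 0.09 in log2 (limma adjusted p = 0.000199). It was thus the most abundant of the 3 at both glycine levels.

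None of the 6 pairs compared passed after adjustment. The log2 difference Fads2 minus Fads1 changed by 0.36 (exact permutation p = 0.119, adjusted p = 0.357), Elovl6 minus Elovl5 by -0.01 (0.881 and 0.881), and Fasn minus Acaca by 0.43 (0.405 and 0.486). Srebf1 minus Srebf2 changed by -0.33 (0.333 and 0.486) and Acly minus Acss2 by 0.42 (0.190 and 0.381). A p that misses the threshold does not show that a pair moved alike, and the sign for Elovl6 against Elovl5 turned with the pseudocount.

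The order of the 10 levels changed with glycine. At 0.2 mM Elovl5 stood highest at 6.29 ± 2.52 TPM, its libraries all above those of Fads1 at 2.68 ± 0.451 TPM. Fads1, Srebf1, Acaca and Acly followed, each overlapping the next in range. Scd2, Fads2 and Elovl6 formed a lower run of overlapping neighbours, and Fasn at 0.701 ± 0.217 and Scd1 at 0.270 ± 0.0770 TPM closed the order without overlap. At 0.8 mM Scd2 stood first, above every library of Elovl5 at 10.7 ± 2.64 TPM, and Elovl5 above every library of Srebf1 at 3.93 ± 1.28 TPM. Srebf1, Acly and Fads1 overlapped in sequence, and so did the last 5, from Fads2 at 2.25 ± 0.691 to Fasn at 1.14 ± 0.270 TPM. The summed TPM of the 10 genes was 19.9 ± 3.74 at 0.2 mM and 48.6 ± 3.38 at 0.8 mM, and without Scd2 it was 18.7 ± 3.71 and 31.2 ± 3.39.

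**Figure D3:**
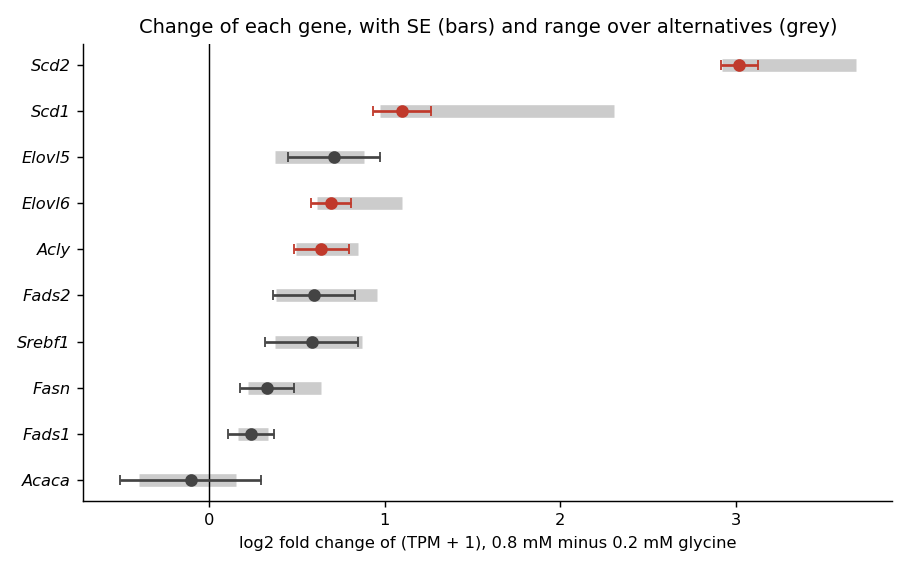
Points give the log2 fold change of each gene on the (TPM + 1) scale, as 0.8 mM minus 0.2 mM, with the SE of the limma fit as bars, red for genes that rose and dark grey for genes that did not pass. Light grey bands span the values over the alternative settings, from 2.92 to 3.68 for Scd2 and from -0.40 to 0.16 for Acaca.

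Among tested genes, those whose centred log2(TPM + 1) values over the 9 libraries lay nearest to Scd2 were Fdps, Gal, Idi1, Gamt and Actc1. Fdps, farnesyl diphosphate synthase of the sterol pathway, was nearest, with a root mean square difference of 0.140. It went from 7.54 ± 0.774 to 72.1 ± 7.51 TPM. Idi1, the isomerase just before Fdps in that pathway, had a difference of 0.215, and Gal (galanin) 0.164, Gamt (creatine synthesis) 0.236 and Actc1 (cardiac actin) 0.257. The pseudocount of 1 enters these differences, most of all for Idi1, which was below 1 TPM at 0.2 mM. This likeness is mostly the step between the groups, over 9 libraries, and is a description.

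The promoters shown next are from RefSeq on GRCm38.p6: those of Acly and Elovl6, which rose, and that of Fasn, which did not pass. Of the 10 genes 7 have a promoter entry in that table, with 9 entries in all, and Scd1, Scd2 and Fads1 have none. Shown are bases before the RefSeq start, without bases that GENCODE places in the gene, with any match, on either strand, to 5 patterns in capitals, which are spelled out after the sequences.
Acly, chr11:100528001-100528250, minus strand: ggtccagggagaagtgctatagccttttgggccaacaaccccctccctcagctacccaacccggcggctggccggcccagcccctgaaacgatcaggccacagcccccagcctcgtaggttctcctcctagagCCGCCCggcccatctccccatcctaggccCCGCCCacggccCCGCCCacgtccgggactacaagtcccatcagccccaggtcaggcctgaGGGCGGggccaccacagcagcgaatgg
Elovl6, chr3:129532136-129532354, plus strand: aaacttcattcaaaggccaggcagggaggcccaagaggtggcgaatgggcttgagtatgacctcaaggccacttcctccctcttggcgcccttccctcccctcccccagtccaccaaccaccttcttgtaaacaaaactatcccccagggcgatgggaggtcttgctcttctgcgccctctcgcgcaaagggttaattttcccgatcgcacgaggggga
Fasn, chr11:120824548-120824797, minus strand: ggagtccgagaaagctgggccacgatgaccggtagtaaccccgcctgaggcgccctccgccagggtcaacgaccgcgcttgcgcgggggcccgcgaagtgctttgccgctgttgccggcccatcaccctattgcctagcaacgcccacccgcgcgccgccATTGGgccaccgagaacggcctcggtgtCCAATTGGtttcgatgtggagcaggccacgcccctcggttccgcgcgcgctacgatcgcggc
The Acly stretch holds 4 matches to GGGCGG, a letter pattern read by Sp1-type factors and present in 32.7% of the 32851 promoter entries of 250 bases. The Fasn stretch holds 3 matches to CCAAT, the NF-Y pattern present in 33.8% of entries, of which 2 on opposite strands overlap by 2 bases. The 250 bases of Elovl6 hold none of the 5 patterns. CACGTG, the palindromic E-box present in 6.02% of entries, was found among the 7 genes only in Elovl5. TCACNCCA, a core of sterol regulatory elements present in 3.67% of entries, and the LXR pattern, AGGTCA repeated after a gap of 4 bases and present in 0.0152%, were found in none of them. For Acaca, Fads2 and some Srebf1 entries, all or nearly all of the 250 bases searched lie inside the gene as GENCODE places it. A match says only that the letters are there, and no match only that they are not in this window.

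Genes of the steps around these enzymes were read from 9 further lists. Their counts are to be read beside those of all tested genes, of which 16.7% rose and 9.81% fell. In the elongation cycle, whose first step the Elovl enzymes catalyse, Hacd1, a dehydratase abundant in muscle, rose from 54.5 ± 2.96 to 108.9 ± 4.63 TPM (limma adjusted p = 7.97e-07). Tecr, the reductase of the last step, rose from 53.8 ± 4.67 to 118.8 ± 5.85 TPM (limma adjusted p = 8.24e-07). Elovl1, which extends very long chains, rose by 0.27 (limma adjusted p = 0.0353), but leaving out any 1 of 6 libraries ended the call, at most 0.135 without 0.2 mM replicate 1, as did median-ratio scaling (0.115). Of 7 tested genes of this list 3 rose, 0 fell and 4 did not pass, with 4 higher and 0 lower at an unadjusted p under 0.05, and Elovl2, Elovl3, Elovl4 and Elovl7 stayed under the filter.

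The desaturases take electrons from cytochrome b5. Cyb5a, its endoplasmic reticulum form, had 259 ± 19.2 and 279 ± 14.3 TPM without passing (limma adjusted p = 0.238). The reductase Cyb5r3 rose from 24.03 ± 1.63 to 35.7 ± 1.96 TPM and the outer mitochondrial form Cyb5b from 2.87 ± 0.459 to 5.10 ± 0.349 TPM. Degs1, the desaturase of ceramide synthesis, fell from 47.6 ± 1.38 to 32.9 ± 0.795 TPM. Of 5 tested genes in the list of other desaturases and electron donors 2 rose, 2 fell and 1 did not pass.

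Among 8 tested genes of carbon and NADPH supply, 2 rose, 1 fell and 5 did not pass. Over all tested genes 16.7% rose and 9.81% fell. Idh1, the cytosolic isocitrate dehydrogenase that yields NADPH, rose from 2.13 ± 0.623 to 6.65 ± 0.898 TPM (limma adjusted p = 9.08e-05). G6pdx, the NADPH-yielding first enzyme of the pentose phosphate pathway, fell from 13.0 ± 0.237 to 8.96 ± 1.19 TPM (limma adjusted p = 0.00734). Acacb, the mitochondrial relative of Acaca, stayed at or below 0.343 TPM, and Thrsp is listed at 0 in every library.

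Steps that use the fatty acids had calls in both directions, as did all tested genes, of which 16.7% rose and 9.81% fell. Acsl3, an acyl-CoA synthetase of the endoplasmic reticulum, rose from 3.10 ± 0.277 to 7.53 ± 1.09 TPM, while its relative Acsl1 fell from 12.5 ± 2.44 to 6.81 ± 1.52 TPM. Lpcat3 and Agpat1, which place acyl chains into phospholipids and their precursors, rose by 0.72 and 0.53. In this list of 12 tested genes 3 rose, 1 fell and 8 did not pass. In the 5 tested genes of mitochondrial fatty acid synthesis, a separate pathway, Ndufab1 (acyl carrier protein) rose by 0.38, Mecr (the enoyl reductase) fell by 0.65 on the log2 scale, and 3 did not pass. Of 13 tested genes of fatty acid oxidation 1 rose (Hadhb, by 0.64), 1 fell and 11 did not pass. The gene that fell was Cpt1a, the entry step into mitochondria that malonyl-CoA inhibits, from 2.77 ± 0.350 to 1.51 ± 0.218 TPM.

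The list of cholesterol synthesis and uptake stood out from the others in its counts, with rises in 18 of 21 tested genes and falls in 0. The median log2 fold change was 1.24. At an unadjusted limma p under 0.05, 21 were higher and 0 lower. Fdps rose by 3.10 and Idi1 by 3.02. Idi1 was at 0.307 ± 0.215 TPM at 0.2 mM, and its log2 fold change was 4.71 with a pseudocount of 0.1, against 3.24 for Fdps and 3.68 for Scd2. Msmo1, a sterol demethylation enzyme, rose from 2.57 ± 0.101 to 10.1 ± 1.13 TPM. Whether the sterol genes and the 10 genes differed as groups was not tested. Among 5 targets of the sterol sensor LXR outside fatty acid synthesis, 0 rose, 3 fell and 2 did not pass, with 1 higher and 3 lower at an unadjusted limma p under 0.05. Apoe fell from 418 ± 88.2 to 261 ± 27.7 TPM. Abca1 fell by 0.50 and Abcg1 by 0.38 on the log2 scale. Leaving out any 1 of 3 libraries ended the call of Abca1, at most 0.0688 without 0.2 mM replicate 1. For Abcg1 this held of 8 libraries, at most 0.140 without 0.2 mM replicate 3.

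**Figure D4:**
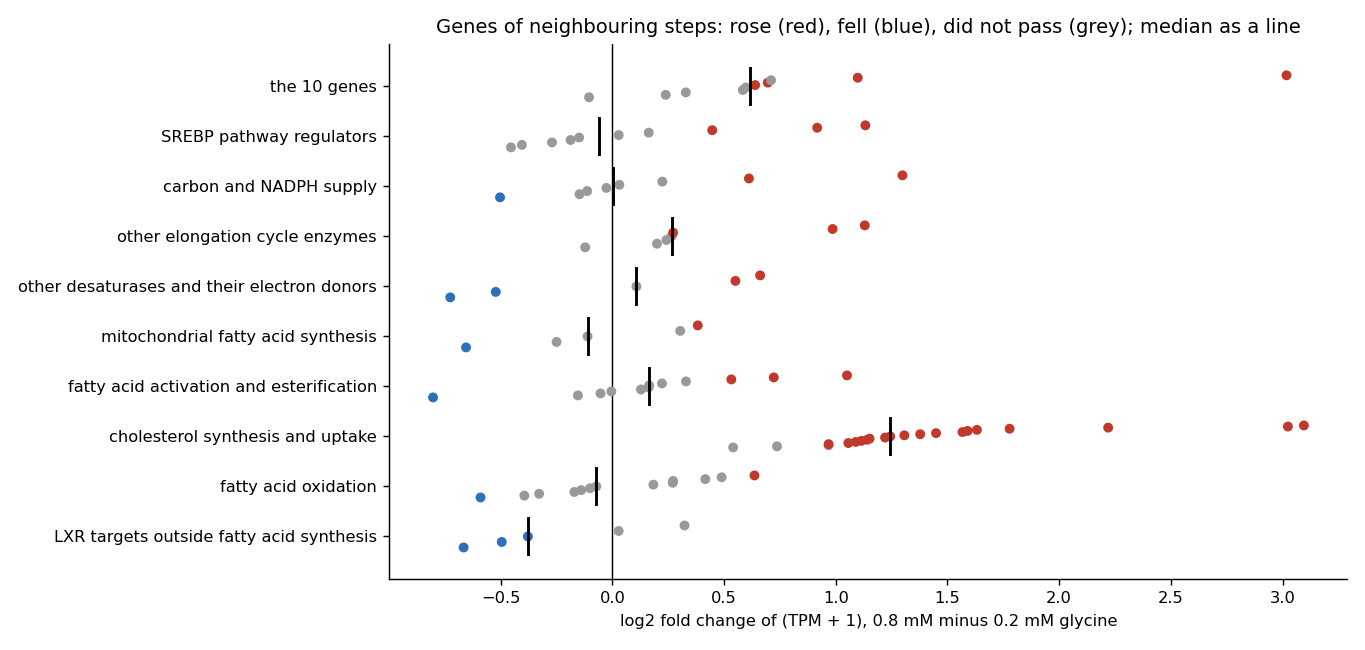
Each point is 1 tested gene, placed by its log2 fold change on the (TPM + 1) scale, as 0.8 mM minus 0.2 mM, red where it rose, blue where it fell and grey where it did not pass, with the median of each list as a black line. The median is 0.62 for the 10 genes, 1.24 for cholesterol synthesis and uptake, and between -0.38 and 0.26 for the other 8 lists.

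Bulk RNA cannot tell fewer cells of a type from less RNA per cell, and markers of several cell types moved with glycine. Over all tested genes 16.7% rose and 9.81% fell. All 10 myoblast and early myocyte markers rose, with a summed level of 1443 to 1763 TPM at 0.2 mM and 4785 to 5776 TPM at 0.8 mM. Of 9 tested macrophage and leukocyte markers 4 rose, 1 fell (Cd68) and 4 did not pass. At an unadjusted limma p under 0.05, 5 of these were higher and 2 lower. The sums were 957 to 1068 and 1203 to 1629 TPM. Of 8 fibroblast and fibro-adipogenic progenitor markers 5 rose, 0 fell and 3 did not pass, with 5 higher and 0 lower at an unadjusted limma p under 0.05 and sums of 2525 to 2961 and 2883 to 3527 TPM. All 3 tested endothelial markers of 5 rose, with sums of 4.04 to 4.67 and 8.96 to 12.1 TPM. Of the 7 adipocyte markers 6 stayed under the filter. Adipoq, Plin1, Cidec, Lep and Pparg were below 1 TPM in every library, with Lep at 0, and Cebpa was at 0.921 ± 0.599 and 0.512 ± 0.119 TPM, with up to 1.34 TPM at 0.2 mM. Fabp4, which other cell types also express, rose from 13.7 ± 0.901 to 29.5 ± 4.36 TPM. Schwann cell markers summed to at most 3.67 TPM. Single genes weigh heavily in the larger sums. Acta1 had means of 904 and 3671 TPM, Lyz2 of 588 and 1013 TPM, and Dcn, which did not pass, of 1878 and 1689 TPM. A sum is thus not the level of a cell type. The part of these cell types in the changes of the 10 genes was not tested.

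Over the series, between 8979 and 9243 genes reached 1 TPM at 0.2 mM and between 9321 and 9457 at 0.8 mM. Ribosomal RNA held 21.3 to 24.7% and 18.7 to 22.5% of TPM. Counted as such were the genes annotated as ribosomal RNA, mitochondrial ones included, and Yam1, which was added by name.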

How the data were processed

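The authors deposited 1 table of TPM per gene for the 9 libraries. Per the labels' protocols, the starting material was total RNA (Trizol) and the kit Illumina TruSeq. Per the submitters' processing notes, HISAT2 2.0.5, StringTie 1.3.3, DESeq2 and the mm10 build were used. Not given in the sources used here are their order, the annotation and any use of strand.

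Genes with at least 1 TPM in at least 3 libraries (10049) were tested on log2(TPM + 1) with limma 3.58.1 in R 4.3.3 (lmFit, eBayes with a trend, two-sided, Benjamini-Hochberg adjustment, threshold 0.05), with no further scaling. The test was checked on simulated data. Pairs of genes were compared by exact permutation over the 84 arrangements of the labels. Positions, exons and transcripts came from GENCODE M21 on GRCm38, to which 53620 of 53715 IDs matched without version, and promoters from RefSeq. Of the listed genes, Mymk was read under its older symbol Tmem8c and Hsd17b8 was not analysed here.

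The 10 genes, the lists and the pairs were chosen with earlier results of these data known. All 10 genes are given. Of each list up to 4 genes with the smallest p among those that passed are named, with Srebf2, Insig1, Scap, Acss2, Slc25a1, Elovl1, Fads3, Cyb5a and Acsl3, and the 5 genes nearest to Scd2. Of these, 1 gene is not reported here. Other genes named as listed at 0, under the filter or as markers were chosen after their values were seen. Alternatives were pseudocounts of 0.1 and 0.5, 2 other filters, 3 scalings, 3 variance or weight settings, each library left out, and libraries 1 to 3 with and without their number as a block.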

Additional observations from a re-analysis of the deposited data

Results flagged for a closer look

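In 4 measures 1 of the 6 libraries at 0.8 mM glycine stood apart from the other 5, by a gap of more than 0.625 of the whole range. Chance flags about 1 in 20 such groups, 16 groups were looked at, and groups of 3 were not. Acaca was at 6.09 TPM in replicate 2, with a gap of 0.784 of the range, and the Fasn to Acaca log2 ratio was -1.95 in the same library. Fasn was at 1.65 TPM in replicate 6, with a gap of 0.636. The Scd2 to Scd1 log2 ratio was 2.29 in replicate 6, the lowest of the group and still above all 3 libraries at 0.2 mM.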

How the results depend on the processing

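Of 845 values of 41 named genes under the alternatives, 786 kept their direction and their side of the threshold. A call was lost in 48, gained in 5, and the sign turned in 6, none of them of a gene that passed. The depth behind TPM is unknown, and genes near 1 TPM, such as Fasn, Scd1 and Fads2, are the least certain. At 0.2 mM Elovl6 and Scd2 also lay near 1 TPM. Among the 10 genes 2 rose when only genes with a mean of at least 5 TPM were tested (Scd2 and Elovl5), where 8 were left out by the filter. Library numbers did not pair the samples (correlations of 0.0229, 0.0300 and 0.0812 for equal numbers), and not every library correlated best with its own number. With libraries 1 to 3 and the replicate block 2 of the 10 rose (Scd1 and Scd2), with 1117 rises and 596 falls over all genes. The block ended the calls of Acly (adjusted p = 0.0911), Elovl6 (0.0555), Lpcat3 (0.0593), Agpat1 (0.0574) and Cpt1a (0.0562), and of Elovl1, Insig2, Abca1 and Abcg1, with log2 fold changes of 0.68, 0.66, 0.71, 0.52 and -0.63 for the first 5. Without the block the same 6 libraries gave 3 that rose. With 1 library left out, between 3 and 6 of the 10 rose and 0 fell. Acaca turned to 0.14 with the block and with the same libraries without it, and lay between -0.40 and 0.16 with 1 library left out, higher than 0 without 0.2 mM replicate 2 and without 0.8 mM replicate 3. Scap lay between -0.21 (without 0.2 mM replicate 3) and 0.53 with 1 library left out, and Cyb5a turned to -0.095 after quantile normalization. The Elovl6 minus Elovl5 change turned to 0.30 and 0.11 with pseudocounts of 0.1 and 0.5, and with 1 library left out it lay between -0.19 and 0.31. Of 378 counts over the lists 23 moved by more than 1.5 times. The causes were not tested.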
